A study of Mus musculus with 6 samples.

Results

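Glutaredoxin, thioredoxin and antioxidant genes were examined in the left ventricle of mice without MURC and of wild-type mice. MURC is the muscle protein of caveolae now named cavin-4. The set holds 40 listed genes, chosen by name for their role in thiol and peroxide chemistry, with earlier results of these data known. Of these genes, Glrx3 was picked for its rise on these same arrays. A gene was measured by the probe set whose only annotated symbol was that gene, and by the one with the highest mean signal where there were several. Of the 40 genes, 38 had such a probe set, out of 19938 named genes on the array. Prdx5 and Prdx6 had none under that rule and are not analysed here. All 38 measured genes passed the filter on dim signals, which stood at a log2 value of 3.45. Because Glrx3 was selected on its difference between genotypes, its values are a description and were not tested, and it is left out of every count and median of signals below, leaving 37 genes.

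The data were 6 Affymetrix arrays of left ventricle RNA from male mice on a C57BL/6 background, 3 labelled as MURC knockout and 3 as wild type, with no treatment in either group. The knockout mice were labelled as 11, 11 and 13 weeks of age for replicates 1, 2 and 3, and the wild-type mice as 13, 13 and 12 weeks. The labels give neither the substrain nor the construction of the knockout allele, and do not state whether each array had its own mouse. The p-values therefore describe the spread among these 6 arrays, which may be technical. Signals are log2 values, on which a difference of 1 is a doubling.

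Cells hold their cysteine thiols reduced through 2 linked chains that both draw on NADPH. In one, thioredoxin reductase reduces thioredoxin, which in turn reduces peroxiredoxins. In the other, glutathione reductase keeps glutathione reduced for glutaredoxins, glutathione peroxidases and glutathione transferases. Superoxide dismutases turn superoxide into hydrogen peroxide, which catalase, peroxiredoxins and glutathione peroxidases remove. The transcription factor NRF2, held back by KEAP1, switches on many of these genes under oxidative stress. Heart muscle is rich in mitochondria and carries separate mitochondrial and cytosolic forms of several of these proteins.

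The arrays followed their labels. Cavin4, which encodes MURC, measured 5.38, 5.74 and 5.59 in the knockout against 8.75, 8.62 and 8.07 in the wild type, a log2 change of -2.91 (limma adjusted p = 0.012). Its adjusted p missed the threshold when knockout replicate 1 was left out (0.0646), knockout replicate 3 (0.118) or wild-type replicate 1 (0.0777), and with the replicate number as a block (0.0754). The 10 heart muscle markers had a mean log2 signal of 12.37 to 12.42 on every array. Markers of atrial muscle stood apart on 1 array, knockout replicate 2, at a mean of 6.34 against 4.90 to 5.18 on the others. Of those 6 markers Sln and Bmp10 were below the filter. The mean of the smooth muscle and pericyte markers was higher on all knockout arrays (7.14 to 7.21 against 6.98 to 7.07). Of these, 2 of 6 were at an unadjusted p under 0.05 in limma, Tagln at 0.42 and Myh11 at 0.35. Acta2, Rgs5 and Cnn1 overlapped at 0.10, 0.09 and 0.16, and Pdgfrb went the other way, at -0.15. The mean of the 6 fat cell markers was lower on all knockout arrays (4.76 to 4.82 against 4.84 to 4.91), but 0 of the 5 tested were at that p in limma, Adipoq was below the filter, and Fabp4 and Lep measured 0.14 and 0.05 higher. Macrophage and leukocyte markers overlapped (6.66 to 6.92 against 6.76 to 7.17), with 1 of 8 lower at that p. Skeletal muscle markers overlapped as a mean (5.43 to 5.54 against 5.31 to 5.47), but of 8 tested Acta1, at 0.59, and Ckm, at 0.13, were higher at that p without overlap. Their wild-type means were 9.22 and 11.50. Myh1, Myh2, Tnnt3, Tnni2, Actn3 and Mylpf had wild-type means of 3.59 to 5.54 and overlapped, at -0.12 to 0.16. The part of these cells in the results below was not tested, and in bulk tissue fewer cells of a type and less RNA per cell cannot be told apart.

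Measured over all 24898 probe sets tested, no antioxidant gene passed an adjusted p of 0.05 in limma, a threshold that 0.00402% of the probe sets passed. At an unadjusted p under 0.05, Gstm5 was higher in the knockout, and Txn1, Cat and Gstm1 were lower. These are 1 and 3 of 37 genes, where 4.71% of all probe sets were higher and 9.02% lower. With 1 probe set for each of the 15298 named genes tested, the background was 2.5% higher and 8.97% lower. The members' shares therefore lay near the background. The genotypes did not overlap for 7 of the 37, 1 of them higher (Txnrd2) and 6 lower (Glrx, Txn1, Cat, Gstm1, Nnt and Nqo1). Of all probe sets 6.12% were higher and 12.9% lower without overlap, and of named genes 4.64% and 14.1%. The median log2 difference was -0.05 over the 37 genes, against -0.04 over the named genes. The wild-type mean was the higher one for 22 genes and the knockout mean for 15, and after quantile normalization the split was 20 and 17.

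These counts moved with single arrays, and for 26 of the 37 genes leaving out some array moved the difference by over 1.5 times or turned its sign. The same share over all named genes was not computed, so the 26 are not a trait particular to the members. The number of higher genes at an unadjusted p under 0.05 was 0 when knockout replicate 1 was left out and 0 again for knockout replicate 3. It was 3 for wild-type replicate 1, and 2 for knockout replicate 2 and for wild-type replicate 3. Over the fits with 1 array left out, 3.225% to 6.249% of all probe sets were higher at that p. Without knockout replicate 1 the number of lower genes was 7, where 7.46% of all probe sets were lower. The number without overlap, for which fewer arrays then have to be apart, was 13 and 12 without knockout replicates 1 and 2. It was 16 and 15 without wild-type replicates 1 and 3. The share of all probe sets without overlap was not computed in these settings, so these counts are not a result about the members. The plot of all measured genes by array shows how small most differences were beside the spread within a genotype.

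**Figure D1:**
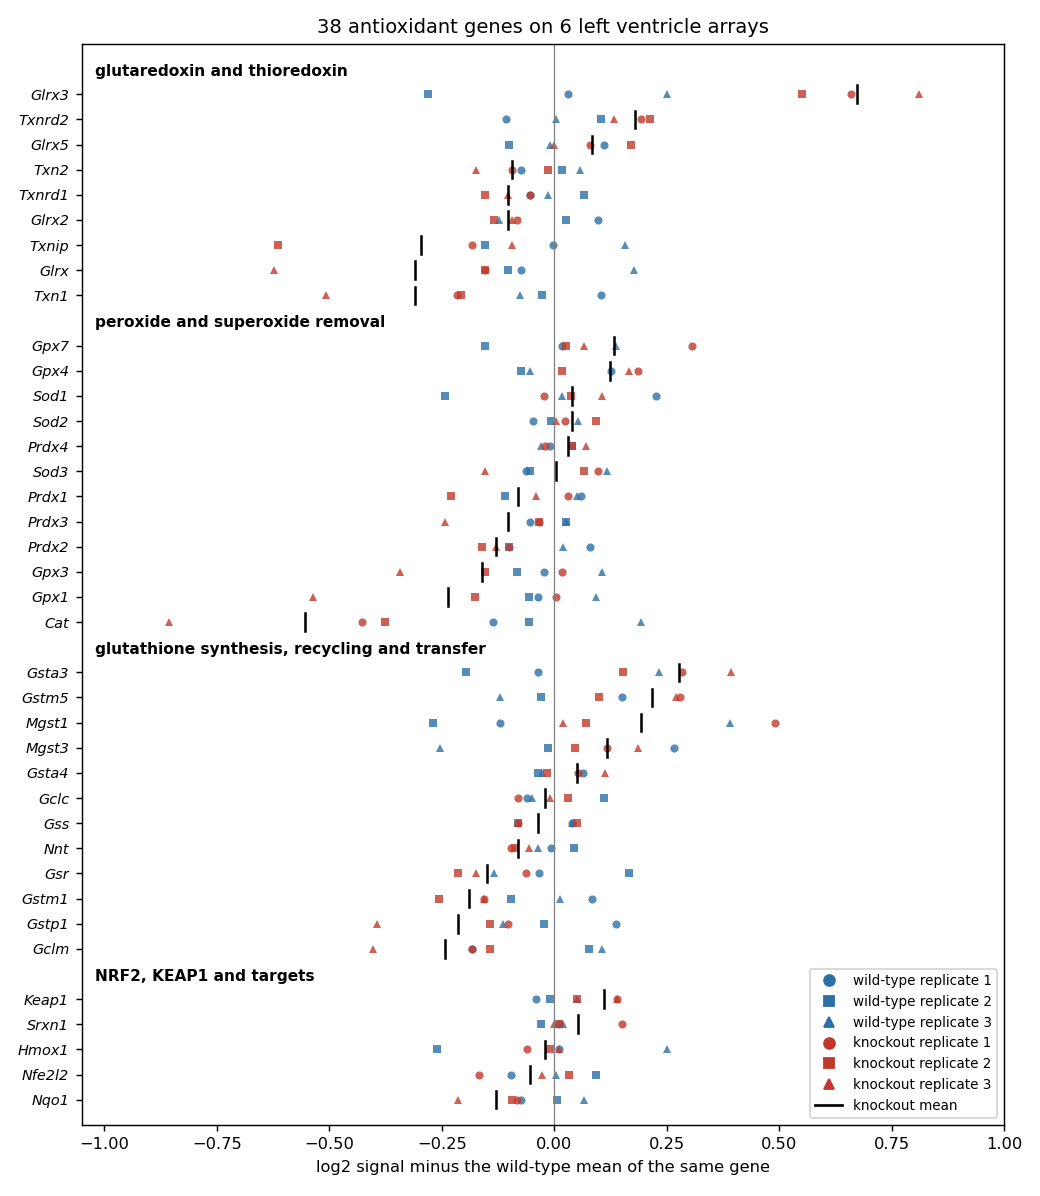
Log2 signal of each of the 38 measured genes on each array, minus the wild-type mean of that gene (horizontal axis), grouped by role. Blue points are wild-type and red points knockout arrays, the shape gives the replicate, and the black bar marks the knockout mean, which lies at 0.67 for Glrx3 and -0.55 for Cat.

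Among the 8 other genes of the glutaredoxin and thioredoxin group, 1 was lower at an unadjusted p under 0.05 and 0 higher, with a median log2 difference of -0.10. For this count and those of the role groups that follow, the background is 8.97% of named genes lower and 2.5% higher. Glrx3, chosen for its rise, had the largest difference of the set. It encodes a monothiol glutaredoxin with a thioredoxin domain, also called PICOT, which carries iron-sulfur clusters with BOLA2 and is known in heart muscle as a partner of the muscle LIM protein and a brake on calcineurin signalling. Glrx3 measured 7.53, 7.42 and 7.68 in knockout replicates 1 to 3 and 6.90, 6.59 and 7.12 in the wild type. All 3 knockout arrays lay above all 3 wild-type arrays, with a gap of 0.30 between the nearest values. The means were 7.54 ± 0.13 and 6.87 ± 0.27 (SD, n = 3), a log2 difference of 0.67 or 1.59-fold, which ranked 13 from the highest among 15298 named genes. The difference was 0.53 without wild-type replicate 2, the lowest array, and 0.80 without wild-type replicate 3, the highest of its group. A second probe set that the annotation assigns jointly to Glrx3 and to Gm12669, a transcribed pseudogene, measured 6.07, 5.62 and 5.91 in the knockout against 5.91, 5.60 and 5.69 in the wild type. Its groups overlapped, with a difference of 0.13, and no gene is named from it.

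None of the other glutaredoxin genes had an unadjusted p under 0.05 in limma. Glrx, the cytosolic dithiol glutaredoxin that removes glutathione from proteins, measured 7.40, 7.40 and 6.93 in the knockout against 7.48, 7.45 and 7.73 in the wild type. Its genotypes were apart by only 0.05, and the log2 difference of -0.31 (SE 0.14, limma adjusted p = 0.403) was -0.15 without knockout replicate 3. Glrx2, the mitochondrial dithiol form, measured 8.15, 8.10 and 8.14 against 8.33, 8.26 and 8.11, with a difference of -0.10 (SE 0.07) and wild-type replicate 3 among the knockout values. Glrx5, the mitochondrial monothiol glutaredoxin of iron-sulfur cluster assembly, measured 8.43, 8.52 and 8.35 against 8.46, 8.25 and 8.34, which overlapped. Its 95% interval ran from -0.10 to 0.27.

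Of the thioredoxin genes, Txn1 had the smallest p. Txn1, the cytosolic thioredoxin, measured 9.81, 9.82 and 9.52 in the knockout against 10.13, 10.00 and 9.95 in the wild type. No knockout array reached a wild-type array, and the log2 difference was -0.31 (SE 0.10, 95% interval -0.53 to -0.09). It had an unadjusted p of 0.0125 in limma and an adjusted p of 0.228, and it was -0.21 without knockout replicate 3, which was the lowest array. The unadjusted p stayed under 0.05 in all 16 alternative fits, while the adjusted p ran from 0.105 to 0.445. Txn2, the mitochondrial thioredoxin, overlapped at a difference of -0.09 (95% interval -0.25 to 0.07).

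The reductases that recharge the thioredoxins lay on either side of the wild type. Txnrd2, the mitochondrial reductase, measured 6.52, 6.54 and 6.46 in the knockout against 6.22, 6.43 and 6.33 in the wild type. Its groups were apart by 0.03, and the difference of 0.18 (SE 0.08) had an unadjusted p of 0.0593. Txnrd1, the cytosolic reductase, overlapped at -0.10 (SE 0.07). Txnip, which binds and inhibits thioredoxin and responds to glucose, measured 10.72, 10.29 and 10.81 against 10.90, 10.75 and 11.06. Its lowest value was on knockout replicate 2, the array where the atrial markers Myl4 and Myl7 were high. The difference of -0.30 (SE 0.14) was -0.14 without that array. The part of atrial tissue in this difference was not tested. The panels of glutaredoxin and thioredoxin genes show these values on a common scale of 1.5 log2 units.

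**Figure D2:**
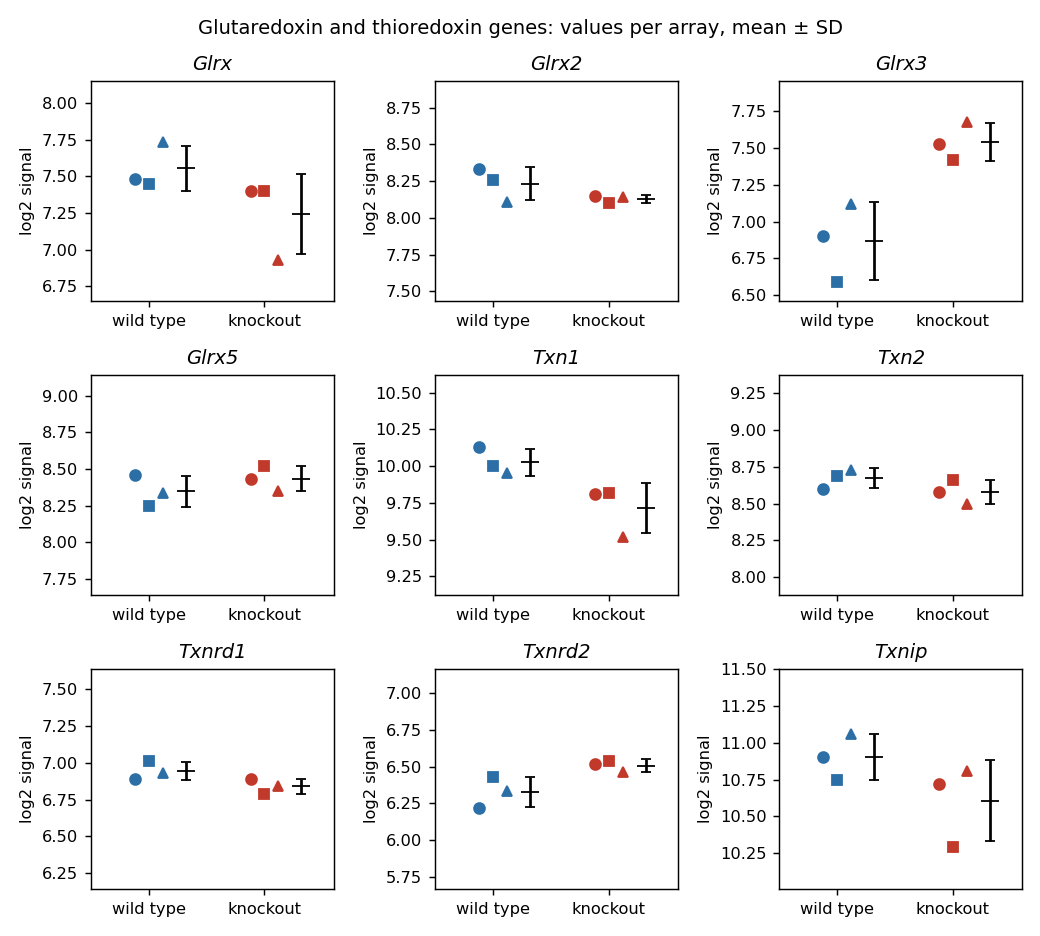
Log2 signal (vertical axis) of the 9 glutaredoxin and thioredoxin genes in wild-type (blue) and knockout (red) left ventricle, 1 point per array with shapes for replicates 1 to 3 and, beside them, the mean ± SD (n = 3). Each panel spans 1.5 log2 units, and the groups are apart in Glrx, Glrx3, Txn1 and Txnrd2.

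Of 12 measured genes that remove peroxide and superoxide, 1 was lower at an unadjusted p under 0.05 and 0 higher, with a median of -0.04. That count is near the background of 8.97% of named genes lower. The lower gene, Cat, had the largest difference and the smallest p of the 37 genes. It encodes catalase, the peroxisomal enzyme that splits hydrogen peroxide. Cat measured 10.15, 10.20 and 9.72 in knockout replicates 1 to 3 and 10.44, 10.52 and 10.77 in the wild type. The groups were apart by 0.24, and knockout replicate 3 was the lowest array. The means were 10.02 ± 0.26 and 10.58 ± 0.17 (SD, n = 3), a log2 difference of -0.55 (SE 0.14, 95% interval -0.88 to -0.22) or 1.47-fold. Its adjusted p over all probe sets was 0.161 in limma, with an unadjusted p of 0.00509, and its difference ranked 51 from the lowest among 15298 named genes. Tested among annotated probe sets alone Cat had an adjusted p of 0.041, and with age as a covariate one of 0.0402 and a difference of -0.79. Over all 16 alternative fits the adjusted p ran from 0.0402 to 0.295, and without knockout replicate 3 the difference was -0.40.

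The peroxiredoxins, which reduce peroxides at an active cysteine, differed little. Prdx2, a cytosolic form abundant in red blood cells, measured 10.51, 10.45 and 10.48 in the knockout against 10.69, 10.51 and 10.63 in the wild type, a difference of -0.13 (SE 0.06, unadjusted p 0.069). The 2 red blood cell markers measured, Alas2 and Slc4a1, overlapped between genotypes, with a mean of 4.72 to 5.41 against 5.02 to 5.45. Prdx1, Prdx3 and Prdx4, of the cytosol, the mitochondrion and the endoplasmic reticulum, overlapped at -0.08, -0.10 and 0.03. A second Prdx1 probe set measured a difference of -0.09. A second Prdx2 probe set was much dimmer, at 7.45 to 7.54 over all arrays, and overlapped at -0.03. Which of the 2 Prdx2 probe sets follows the gene better was not tested.

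The glutathione peroxidases, selenium enzymes or their relatives, lay on both sides of the wild type. Gpx1, the main cytosolic form, measured 7.94, 7.76 and 7.40 against 7.90, 7.88 and 8.03. Its difference of -0.24 (SE 0.13) was -0.09 without knockout replicate 3, the lowest array. Gpx3, the secreted form, overlapped at -0.16 (SE 0.10), and was at -0.07 without knockout replicate 3. Gpx4, which reduces lipid peroxides in membranes, was at 0.12 (SE 0.08) and its second probe set at 0.14. Gpx7, of the endoplasmic reticulum, was at 0.13 (SE 0.12).

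The superoxide dismutase genes overlapped between genotypes. Sod2, the manganese enzyme of the mitochondrial matrix, measured 10.60, 10.67 and 10.58 against 10.53, 10.57 and 10.63, with a 95% interval of -0.09 to 0.17. Sod1, the cytosolic copper-zinc form, measured 9.84, 9.90 and 9.97 against 10.09, 9.62 and 9.88. Its difference of 0.04 rested on 1 array and was -0.08 without wild-type replicate 2. Sod3, the extracellular form, measured 6.56, 6.53 and 6.31 against 6.40, 6.41 and 6.58, and its difference of 0.00 had no stable sign when arrays were left out.

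Of the 12 genes that make, recycle and transfer glutathione, 1 was higher and 1 lower at an unadjusted p under 0.05, with a median of -0.03. Glutathione is made by glutamate-cysteine ligase and glutathione synthetase, and their genes overlapped. Gclm, the modifier subunit of the ligase, measured 7.10, 7.14 and 6.88 in the knockout against 7.10, 7.36 and 7.39 in the wild type. Its log2 difference was -0.24 (SE 0.11, unadjusted p 0.056), with wild-type replicate 1 inside the knockout range. Gclc, the catalytic subunit, measured 6.35, 6.46 and 6.42 against 6.37, 6.54 and 6.38, a difference of -0.02 that was 0.02 after quantile normalization and 0.04 without wild-type replicate 2. Gss, the synthetase, was at -0.04 (SE 0.08). Gsr, the reductase that recycles glutathione, was at -0.15 (SE 0.10), and -0.07 without wild-type replicate 2.

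Nnt, the proton-driven transhydrogenase that makes NADPH in the mitochondrion, had the least spread within genotypes of the genes whose groups did not overlap. It is known to carry a deletion in the C57BL/6J substrain, and here no array stood apart. This does not tell the substrain, since mice that all share the same allele would also read alike. Whether the probe set covers the deleted part was not tested. Nnt measured 10.06, 10.07 and 10.10 in the knockout against 10.15, 10.20 and 10.12 in the wild type. The groups were apart by 0.02, and the difference of -0.08 (SE 0.05, 95% interval -0.20 to 0.04) had an adjusted p of 0.556.

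The glutathione transferases, which attach glutathione to reactive compounds, held both the member with an unadjusted p under 0.05 that was higher and one that was lower. Gstm1 measured 9.81, 9.71 and 9.81 in the knockout against 10.05, 9.87 and 9.98 in the wild type. No knockout array reached a wild-type array, and the log2 difference was -0.19 (SE 0.07, limma adjusted p = 0.274, unadjusted p 0.0216). Gstm5 measured 8.21, 8.03 and 8.20 against 8.08, 7.90 and 7.81. Wild-type replicate 1 lay above knockout replicate 2, and the log2 difference was 0.22 (SE 0.09, limma adjusted p = 0.354, unadjusted p 0.0453). Each of these unadjusted p-values stayed under 0.05 in 11 of 16 alternative fits. Both genes lie on chromosome 3 with their relatives Gstm2 and Gstm7, which measured -0.36 and -0.43 and had the unadjusted p-values 0.00468 and 0.00143. Gstm4, a further relative on that chromosome, overlapped at -0.09 (SE 0.14). Genes of this family are alike in sequence, and how far their probe sets share targets was not tested.

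The other transferases overlapped between genotypes. Gsta3, an alpha-class enzyme, measured 7.08, 6.95 and 7.19 against 6.76, 6.60 and 7.03, a difference of 0.28 (SE 0.12, unadjusted p 0.0547). Gstp1, the pi-class enzyme, measured 9.73, 9.69 and 9.44 against 9.97, 9.81 and 9.72, a difference of -0.21 (SE 0.10) that was -0.12 without knockout replicate 3. A pair of probe sets shared by Gstp1 and Gstp2 measured -0.08 and -0.11. Gsta4, which clears lipid aldehydes, was at 0.05. The membrane-bound Mgst1 and Mgst3 were at 0.19 and 0.12, and they had the largest wild-type SDs of the 37 genes, 0.35 and 0.26. Mgst1 was at 0.05 without knockout replicate 1, at 0.39 without wild-type replicate 3 and at -0.03 with age as a covariate. Mgst3 measured 10.53, 10.46 and 10.60 against 10.68, 10.40 and 10.16, and its difference was -0.01 without wild-type replicate 3.

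NRF2, its repressor and 3 of its classical targets differed little, with 0 of the 5 genes at an unadjusted p under 0.05 in limma and a median of -0.02. Nqo1, a quinone reductase often read as a marker of NRF2 activity, measured 7.83, 7.82 and 7.70 in the knockout against 7.84, 7.92 and 7.98 in the wild type. The groups were apart by 0.01, and the log2 difference of -0.13 (SE 0.07) had an adjusted p of 0.474. Hmox1, the haem-degrading oxygenase, measured 6.01, 6.06 and 6.08 against 6.08, 5.81 and 6.32, and its difference of -0.02 was 0.11 without wild-type replicate 3 and 0.01 after quantile normalization. Srxn1, which repairs overoxidised peroxiredoxins, was at 0.05 (95% interval -0.13 to 0.23). Nfe2l2, which encodes NRF2, measured 7.96, 8.16 and 8.10 against 8.03, 8.22 and 8.13, a difference of -0.05 that was 0.00 without knockout replicate 1. Keap1, the repressor, was at 0.11 (95% interval -0.05 to 0.27).

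NRF2 binds the antioxidant response element, whose core is the word TGACNNNGC. The RefSeq windows of GRCm38.p6, 250 bases before to 50 after each gene start, were searched for it on both strands, that is also for GCNNNGTCA. Of the 33 listed genes with a window, 9 held the word in at least 1 window, or 27.3%, against 14.0% of 27025 genes. A gene with several starts had several windows, so the shares are not per window. The stretches are shown because they set the genes with the word apart from the others by sequence alone. Each is written in the direction of its gene with 10 bases on either side, and the capitals mark the word or, where it lies on the opposite strand, its reverse complement.

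Gsta3, chr1:21240454-21240482: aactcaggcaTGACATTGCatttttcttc
Gstm5, chr3:107895802-107895830: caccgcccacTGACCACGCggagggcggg
Mgst1, chr6:138140461-138140489: gcggggcttgGCACGGTCAggaggcgggg
Srxn1, chr2:152105542-152105570: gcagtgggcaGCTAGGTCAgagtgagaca
Sod1, chr16:90220696-90220724: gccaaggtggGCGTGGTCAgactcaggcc
Nfe2l2, chr2:75704885-75704913: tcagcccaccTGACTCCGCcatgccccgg
Prdx1, chr4:116685456-116685484: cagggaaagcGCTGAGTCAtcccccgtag
Txnrd1, chr10:82859104-82859132: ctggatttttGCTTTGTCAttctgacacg
Gclm, chr3:122245413-122245441: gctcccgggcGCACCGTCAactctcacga

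The lines run from the gene with the highest log2 difference to the one with the lowest. Gsta3, Gstm5, Mgst1, Srxn1 and Sod1 had the higher knockout mean, and Nfe2l2, Prdx1, Txnrd1 and Gclm the lower. The median difference of these 9 genes was 0.04, and that of the 22 measured genes with a window and without the word was -0.10, of which 8 had the higher knockout mean and 14 the lower. None of the 9 passed the adjusted threshold, and Gstm5 was the 1 with an unadjusted p under 0.05. The word was not found in the windows of Glrx3, Cat, Txn1, Gstm1 or Nqo1, which says only that these letters are not in these windows. In Txnrd1 it stands in 1 of 3 windows. In Srxn1 it lies 29 bases past the gene start, inside the transcript.

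Several of the lower differences were largest on knockout replicate 3, the 1 knockout array of 13 weeks. On it 10 of the 37 genes were more than 0.2 below the mean of the other knockout arrays and 1, Txnip, was more than 0.2 above. Over the named genes the shares were 11.5% below and 9.77% above, with a median offset of -0.02, against -0.04 for the 37 genes. The lowest offsets were those of Glrx at -0.47, Cat at -0.46, Gpx1 at -0.45 and Txn1 at -0.30. Knockout replicate 3 was the lowest of the 6 arrays for 29.7% of the 37 genes and for 25.3% of named genes.

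Age differed between the groups, and only 13 weeks was shared, by 1 knockout and 2 wild-type arrays. At 13 weeks, with no test, the log2 difference was -0.76 for Cat, -0.55 for Txn1, -0.54 for Glrx, -0.49 for Gpx1, -0.45 for Gstp1, 0.51 for Gsta3 and 0.94 for Glrx3. Txnip, by contrast, was at -0.02 among those 3 arrays. Several of the genes listed here were named above for their offsets on knockout replicate 3, the only knockout array of that age. The median difference of the 37 genes was -0.035 among those 3 arrays, against -0.053 over all 6. With age as a covariate in the fit over all 6 arrays, 9 of the 37 genes were lower at an unadjusted p under 0.05, where 8.43% of all probe sets were lower in that fit. Glrx was at -0.55 (adjusted p = 0.0788) and Gpx1 at -0.45 (adjusted p = 0.129). The part of age and of that single array cannot be told apart, since knockout replicate 3 is the only knockout array above 11 weeks.

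**Figure D3:**
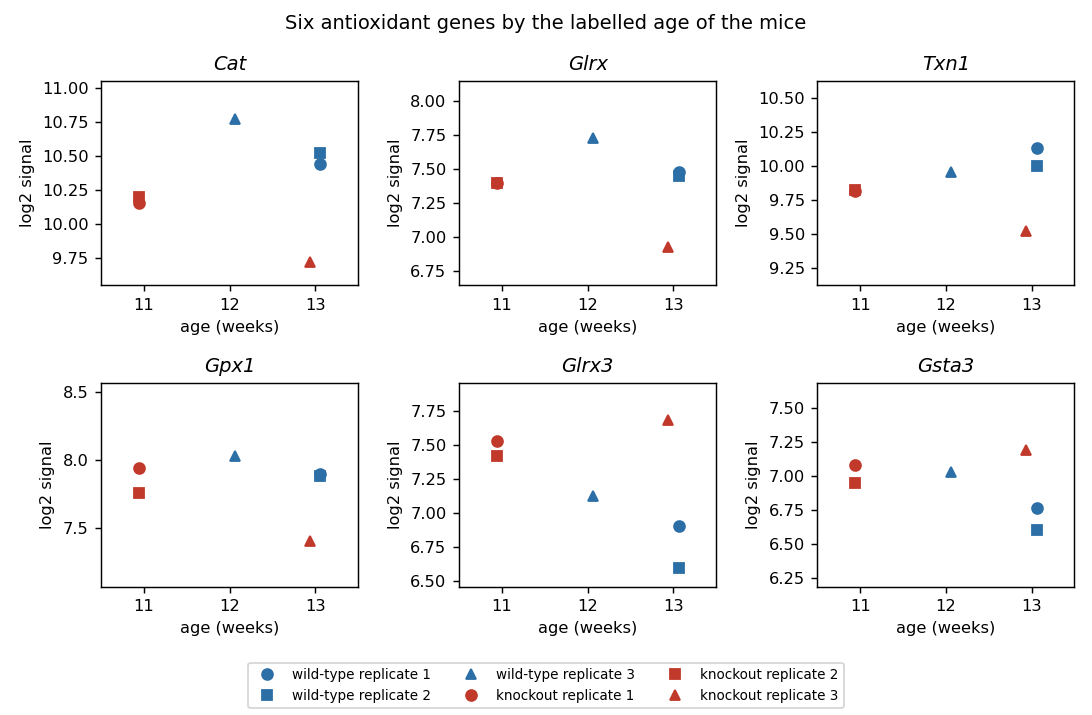
Log2 signal (vertical axis) of Cat, Glrx, Txn1, Gpx1, Glrx3 and Gsta3 against the labelled age in weeks (horizontal axis, points of the 2 genotypes set slightly apart), with wild-type arrays in blue and knockout arrays in red. The 13-week knockout array is the lowest of all 6 for Cat (9.72), Glrx (6.93), Txn1 (9.52) and Gpx1 (7.40), and the highest for Glrx3 (7.68) and Gsta3 (7.19).

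Other genes of the same chemistry were taken from 8 lists with 128 genes. Of these 117 were tested, and 0 passed the adjusted threshold in limma. In the limma fit of annotated probe sets alone, 361 of 17934 probe sets passed. Not every gene of these lists was followed into that fit. The genes followed were mostly the 3 of each list with the smallest unadjusted p on these arrays. The count that follows is therefore not a share of the 117 and not a result about the lists. Of those that were, 6 had an adjusted p under 0.05, all of them lower: Gstm7 (0.0279), Gstz1 (0.034), Maob (0.0345), Isca1 (0.0365), Msrb3 (0.037) and Me3 (0.0497). At an unadjusted p under 0.05, 22 of the 117 were lower (18.8%) and 2 higher (1.71%), where 8.97% of named genes were lower and 2.5% higher. Their median log2 difference was -0.05, and these lists, too, were chosen with results of the arrays known. The lower count ran from 16 to 22 over 16 alternative fits and the higher count from 1 to 5.

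Iron-sulfur cluster genes were compared because Glrx3 and Glrx5 carry such clusters. Of 23 tested, 6 were lower at an unadjusted p under 0.05 and 0 higher, with a median of -0.03. Here and in the lists that follow, the background is the same 8.97% of named genes lower and 2.5% higher. Isca1, a mitochondrial assembly factor, measured 8.94, 8.95 and 8.64 in the knockout against 9.21, 9.23 and 9.33 in the wild type, a log2 difference of -0.41 (SE 0.09, adjusted p = 0.123). Isca2, its partner, was at -0.27 and the cytosolic scaffold gene Nubp2 at -0.24, both without overlap. Ciao2a, Ciao3 and Nubp1, of the cytosolic pathway, were at -0.31, -0.25 and -0.24. The direct partners of Glrx3 lay near 0, with Bola2 at -0.03 (95% interval -0.26 to 0.19) and Ciapin1, which takes up its cluster, at -0.01 (95% interval -0.16 to 0.13).

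In the list of calcineurin and GLRX3 partner genes 2 of 11 were lower at that p and 0 higher. Csrp3, which encodes the muscle LIM protein, measured 11.28, 11.25 and 11.29 against 11.32, 11.26 and 11.17, a difference of 0.02 (95% interval -0.11 to 0.15). Ppp3cb, a catalytic subunit of calcineurin, was at -0.28 (SE 0.07) and Nfatc3, a transcription factor it activates, at -0.27 (SE 0.07), both without overlap. Nfatc2 was at -0.16.

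Of 17 other glutathione enzymes 4 were lower and 0 higher. Gstz1, of tyrosine breakdown, measured 6.94, 6.88 and 6.57 against 7.46, 7.25 and 7.22, a log2 difference of -0.51 (SE 0.12, adjusted p = 0.125). Gstm7, Gstm2 and Gstk1, the last a mitochondrial and peroxisomal enzyme, were at -0.43, -0.36 and -0.35. Of 18 other NRF2 targets and partners 3 were lower and 0 higher. Me1, Cul3 and Fth1, which encode cytosolic malic enzyme, the scaffold of the KEAP1 ligase and ferritin heavy chain, were at -0.24, -0.17 and -0.16.

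Selenoprotein and repair genes had 2 of 13 lower, both for methionine sulfoxide reductases. Msrb3 was at -0.32 (SE 0.07, adjusted p = 0.111) and Msrb1 at -0.26 (SE 0.09), and Msrb2, at -0.16, had an unadjusted p of 0.0571. Of 9 genes of NADPH supply 1 was lower, the mitochondrial malic enzyme Me3 at -0.34 (SE 0.08), with Aldh1l2 at -0.09 and Idh2 at 0.06. Of 16 other thioredoxin-fold genes Txnl1, which binds the proteasome, was higher at 0.27 (SE 0.07) and Txndc16 lower at -0.30 (SE 0.08), with Txnl4a at -0.17.

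Enzymes that make oxidants had 3 of 10 lower and 1 higher. Maob, a monoamine oxidase of the mitochondrial outer membrane that releases hydrogen peroxide, measured 7.41, 7.47 and 7.19 against 7.71, 7.78 and 8.03, a log2 difference of -0.48 (SE 0.11, adjusted p = 0.125). Xdh, xanthine dehydrogenase, measured 8.11, 8.13 and 8.31 against 7.85, 7.41 and 8.02, a difference of 0.42 (SE 0.15) that was 0.25 without wild-type replicate 2. Rac2 and Ncf4, of the NADPH oxidase of leukocytes, were at -0.26 and -0.23. Cybb, Cyba and Ncf1, of the same oxidase, overlapped at -0.14, -0.04 and -0.22. Leukocyte markers measured a median of -0.18 on these arrays. The part of those cells was not tested.

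**Figure D4:**
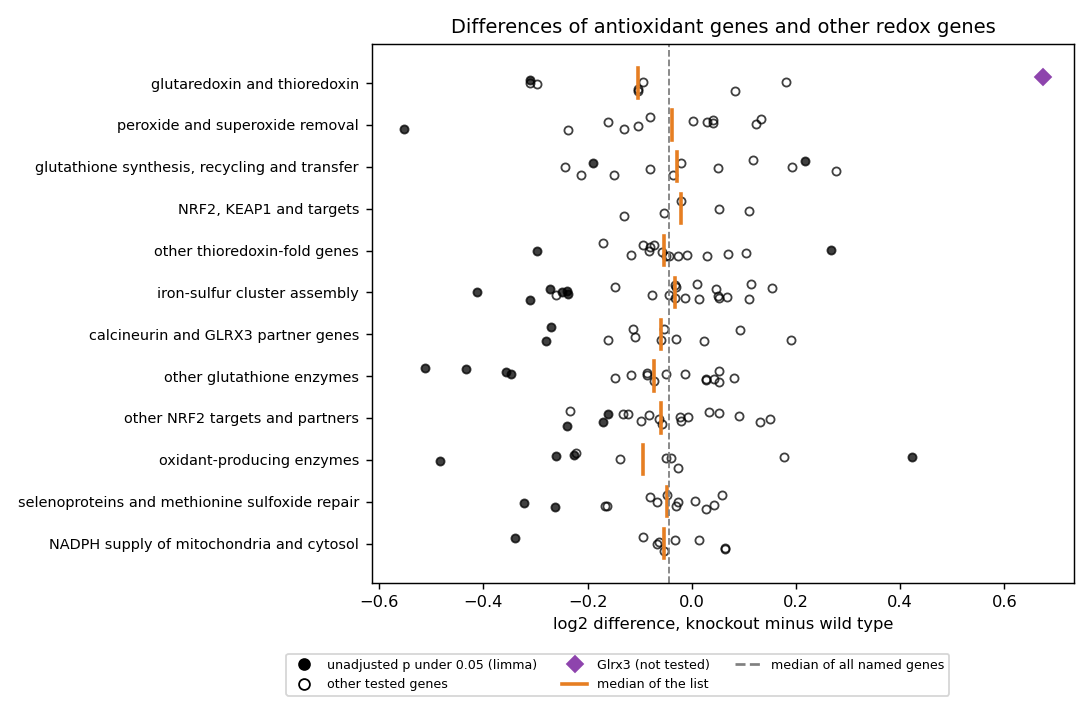
Log2 difference, knockout minus wild type (horizontal axis), of each tested gene in the 4 role groups of antioxidant genes and the 8 lists of other redox genes (vertical axis). Filled points have an unadjusted p under 0.05 in limma, orange bars are list medians without Glrx3, the dashed line at -0.04 is the median of all named genes, and Glrx3, which was not tested, stands at 0.67.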

How the data were processed

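Left ventricle RNA of MURC knockout and of wild-type mice was measured on 3 arrays each, labelled with biotin from 100 ng. The authors deposited 1 table of log2 signals for 35556 probe sets. The submitters' processing notes name MAS5 without role or version, and their scaling and background correction are not given in the sources. That the values are log2 was read from their range (0.46 to 13.72). The array medians were 4.60 to 4.71, and the values were used as deposited. The platform annotation gives 1 symbol to 21789 probe sets, several to 1621, and does not list 12146. Gene IDs of 21698 probe sets matched RefSeq (GRCm38.p6), from which symbols were updated.

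The comparison of knockout with wild type used limma 3.58.1 under R 4.3.3 (lmFit, then eBayes with an intensity trend). Tests were two-sided and covered the probe sets with a mean at or above the 30th percentile, with Benjamini-Hochberg adjustment over all of them. The number of arrays limits the precision, and background can compress differences of dim probe sets. The named genes are all measured members, Cavin4, in each other list the 3 tested genes with the smallest p, and Bola2, Ciapin1 and Csrp3. Gstk1, Ciao2a, Ciao3, Nubp1 and Ncf4 were added after their values were seen because they complete a count. Gstm4 was likewise added later, as a relative of Gstm1 that overlapped, and so were Cybb, Cyba and Ncf1, as oxidase genes that overlapped. The members and lists were chosen with earlier results of these data known. Active-site words were not searched, since no protein table was used here. Alternatives are in the closing section. A gene not past the threshold in either of 2 settings was compared by whether its difference moved by more than the SD within genotypes.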

Additional observations from a re-analysis of the deposited data

How the results depend on the processing

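No member with an unadjusted p under 0.05 changed sign in any alternative. The median difference of the 37 genes, -0.05 as reported, ran from -0.08 to -0.01 over the alternatives. The within-genotype SD over arrays of their median signal was 0.06. It is larger than the median difference itself, so moves smaller than it do not show that the median is stable. The probe sets past the adjusted threshold, 1 as reported, numbered 130 after quantile normalization, 105 after median centring, 48 with a filter at the 50th percentile, 361 among annotated probe sets, 126 with array weights, 34 with age as a covariate and 0 to 11 with 1 array left out. The members higher at an unadjusted p under 0.05, 1 as reported, numbered 4 after quantile normalization, 2 after median centring, among annotated probe sets and with array weights, 0 in limma without an intensity trend and 0 to 3 with 1 array left out. Of all probe sets, 6.77%, 5.724%, 4.377%, 5.125% and 4.33% were higher in those settings, in the same order. With 1 array left out the share was 3.225% to 6.249%. The members lower at that p, 3 as reported, numbered 7 among annotated probe sets, 9 with age as a covariate and 3 to 7 with 1 array left out. Of all probe sets, 10.96%, 8.434% and 6.016% to 9.434% were lower in those settings, in the same order. For the members without overlap, 7 as reported, no such share was computed in the alternatives. They numbered 4 after median centring and 8 to 16 with 1 array left out, where fewer values have to be apart. Except for the arrays left out, the cause of these moves was not tested. Catalase passed the adjusted threshold in 2 of 16 fits, and no other tested member passed in any.

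With the replicate number as a block, 0 probe sets passed in limma, with 4.57% higher and 8.51% lower at an unadjusted p under 0.05, and 2 members were higher and 5 lower. Same-numbered arrays did not deviate together (correlations -0.06, 0.02 and -0.06), so the numbers were not taken as pairs. With 3 arrays a group, small differences are not resolved.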
